A study of Mus musculus with 20 samples.

Results

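The 8 genes described here are Smagp, Cd200r4, Fhdc1, Spats2, Fam181b, Slc35d3, Qpct and Ecscr. They are 8 of the 46078 genes in the deposited table and 8 of the 14176 that passed a filter at a mean of at least 1 TPM (a relative abundance of transcripts that is corrected for transcript length and adds up to the same total in each library), and all 8 passed it. They were picked on these same libraries because their RNA was much higher in cells carrying the Idh2 mutation R172K than in control cells, and Fam181b, Slc35d3, Qpct and Ecscr also because it was higher in cells lacking Tet2. The differences of these genes from the control in Idh2R172K and in the Tet2 knockout are therefore given as a description, without a test, and carry no support for the choice. The filter itself favours a gene that is high in any group, so passing it is no result about the 8 genes.

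The RNA came from bone marrow cells of C57Bl/6J mice aged 3 to 4 months, sorted as negative for lineage markers and positive for cKit and Sca1 (LSK cells, the early fraction in which blood stem cells and their first multipotent descendants are found). The 5 groups were +/+;Vav-Cre (WT), Idh1LSL-R132H/+;Vav-Cre (Idh1R132H), Idh2LSL-R140Q/+;Vav-Cre (Idh2R140Q), Idh2LSL-R172K/+;Vav-Cre (Idh2R172K) and Tet2-/- (Tet2KO). Each group had 4 libraries of total RNA, and each library was a pool of 2 mice. WT and the Idh groups all carry Vav-Cre, a recombinase driven by a promoter of blood-forming cells, and each mutant Idh allele is heterozygous. The label of Tet2KO names no Cre and does not say which exons were deleted, so a difference in Cre and the loss of Tet2 cannot be told apart there. Pools were the replicates, and p-values measure the spread between pools.

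Isocitrate dehydrogenases normally turn isocitrate into 2-oxoglutarate, Idh1 in the cytosol and Idh2 in mitochondria. The mutant enzymes instead turn 2-oxoglutarate into 2-hydroxyglutarate, which can inhibit enzymes that need 2-oxoglutarate. Tet2, which oxidises methylated cytosine in DNA, is among those enzymes, and Idh and Tet2 mutations are known from myeloid leukaemia. The 8 genes do not form a pathway. Smagp is a small transmembrane glycoprotein found at contacts between epithelial cells. Cd200r4 is a relative of the CD200 receptor that signals through an activating adaptor, and Ecscr is a surface protein best known from endothelial cells. Fhdc1 is a formin, a protein that nucleates actin filaments and also binds microtubules. Slc35d3 belongs to the nucleotide sugar transporters and is needed for dense granules in mouse platelets. Qpct is the secreted glutaminyl cyclase, which turns an N-terminal glutamine of peptides into pyroglutamate. Spats2 is a cytoplasmic RNA-binding protein first described in testis, and Fam181b is a little-studied gene.

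Promoter windows are shown for 4 of the genes because TET enzymes act on cytosines in CpG dinucleotides. These windows span the range from CpG-poor to CpG-rich. DNA methylation was not measured in these libraries. RefSeq windows of build GRCm38.p6, the same assembly as mm10, run from 250 bases before to 50 after a start. They were used for 6 of the 8 genes, in 8 windows, and Qpct and Ecscr were left out. Each CpG is in capitals. The windows shown are chr15:100636891-100637190 (minus strand, Smagp), chr15:99126595-99126894 (plus strand, Spats2), chr10:19851410-19851709 (minus strand, Slc35d3) and chr16:44820478-44820777 (plus strand, Cd200r4).
Smagp: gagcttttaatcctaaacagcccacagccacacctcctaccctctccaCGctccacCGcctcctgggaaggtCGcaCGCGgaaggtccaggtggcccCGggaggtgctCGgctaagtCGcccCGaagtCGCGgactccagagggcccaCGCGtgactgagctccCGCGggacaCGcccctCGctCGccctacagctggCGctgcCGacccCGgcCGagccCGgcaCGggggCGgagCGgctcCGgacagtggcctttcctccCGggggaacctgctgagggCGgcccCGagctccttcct
Spats2: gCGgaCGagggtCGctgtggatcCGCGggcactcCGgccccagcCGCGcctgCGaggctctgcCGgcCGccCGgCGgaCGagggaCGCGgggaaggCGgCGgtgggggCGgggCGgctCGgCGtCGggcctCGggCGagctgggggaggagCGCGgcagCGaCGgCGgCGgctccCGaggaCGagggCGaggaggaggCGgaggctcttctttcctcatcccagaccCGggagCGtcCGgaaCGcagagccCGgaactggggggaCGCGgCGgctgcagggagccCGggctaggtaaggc
Slc35d3: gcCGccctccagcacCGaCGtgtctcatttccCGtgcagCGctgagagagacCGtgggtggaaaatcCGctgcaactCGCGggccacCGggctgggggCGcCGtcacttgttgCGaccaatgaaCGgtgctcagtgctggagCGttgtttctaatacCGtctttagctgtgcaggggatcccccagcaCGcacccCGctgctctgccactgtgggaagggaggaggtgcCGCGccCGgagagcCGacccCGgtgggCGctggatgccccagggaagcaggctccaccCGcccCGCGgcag
Cd200r4: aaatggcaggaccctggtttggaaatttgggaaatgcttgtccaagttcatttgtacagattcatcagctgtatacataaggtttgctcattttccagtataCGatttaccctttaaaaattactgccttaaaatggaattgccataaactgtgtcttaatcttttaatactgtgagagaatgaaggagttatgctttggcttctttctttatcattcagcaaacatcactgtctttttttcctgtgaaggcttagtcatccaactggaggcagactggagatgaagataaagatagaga

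The Spats2 window held 44 CpG, the Smagp window 30 and the Slc35d3 window 27, and 97.8%, 88.3% and 84.5% of the 32851 windows of all genes held fewer. The Cd200r4 window held 1 CpG, and 5.43% of all windows held fewer. Its GC content was 36.7%, against 78% for Spats2, 71% for Smagp and 67.7% for Slc35d3. The Cd200r4 window lies inside the GENCODE gene, which begins at chr16:44811733, and the sequence at that start was not examined. The Spats2 window also lies inside its GENCODE gene, which begins at chr15:99125916. The other windows were a second Smagp start with 6 CpG, 2 Fhdc1 starts with 30 and 25, and the Fam181b start with 12. The median over all windows was 7. The 6 genes with a window thus do not share a CpG class over the windows used.

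Short motifs were searched on both strands of the 8 windows. The GC box GGGCGG was in 6 of the 8 windows and in 35.7% of all windows. AGATAA, bound by GATA factors, was in 2 of the 8 (Cd200r4 and 1 of the Fhdc1 windows) and in 11.2% of all. TGTGGT, a RUNX motif, was in the Fam181b window and in 16.8% of all, and CCGGAA, an ETS motif, was in the Spats2 window and in 14.9% of all. TATAAA was in the Fam181b window and in 13.6% of all. CACGTG, an E-box, was in none of the 8 and in 7.15% of all. No motif was common to all 8 windows, and a match says only that these letters are there.

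The genes lie at separate places in the genome, and only Smagp and Spats2 share a chromosome. In mm10 coordinates of the GENCODE M21 annotation, Smagp (ENSMUSG00000053559) is at chr15:100621339-100636940 on the minus strand and Spats2 (ENSMUSG00000051934) at chr15:99125916-99213215 on the plus strand. Cd200r4 (ENSMUSG00000062082) is at chr16:44811733-44839150 on the plus strand. Fhdc1 (ENSMUSG00000041842) is at chr3:84442198-84480429 on the minus strand. Fam181b (ENSMUSG00000051515) is at chr7:93079865-93081867 on the plus strand. Slc35d3 (ENSMUSG00000050473) is at chr10:19847916-19851459 on the minus strand. Qpct (ENSMUSG00000024084) is at chr17:79051906-79090378 on the plus strand, and Ecscr (ENSMUSG00000073599) at chr18:35713086-35722356 on the minus strand. All values are summed over the exons of a gene, so transcripts of the same gene were not told apart.

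The label under which these genes were grouped, genes switched on in Idh2R172K, was checked against their reads in WT. Depth, rebuilt from the steps in the TPM values, was 35.2 to 45 M assigned reads per library (M, 1000000 reads). In every WT library each of the 8 genes had reads. Slc35d3 was clearly present there, with 285 to 376 reads, and Fhdc1 had 148 to 217. Smagp had 32 to 46 reads, Cd200r4 27 to 74, Fam181b 27 to 43, Qpct 25 to 59 and Ecscr 49 to 91. Spats2 came nearest to absence, with 16, 7, 7 and 1 reads in the 4 WT libraries. The genes are therefore called raised genes here, since all had reads in WT.

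**Figure D1:**
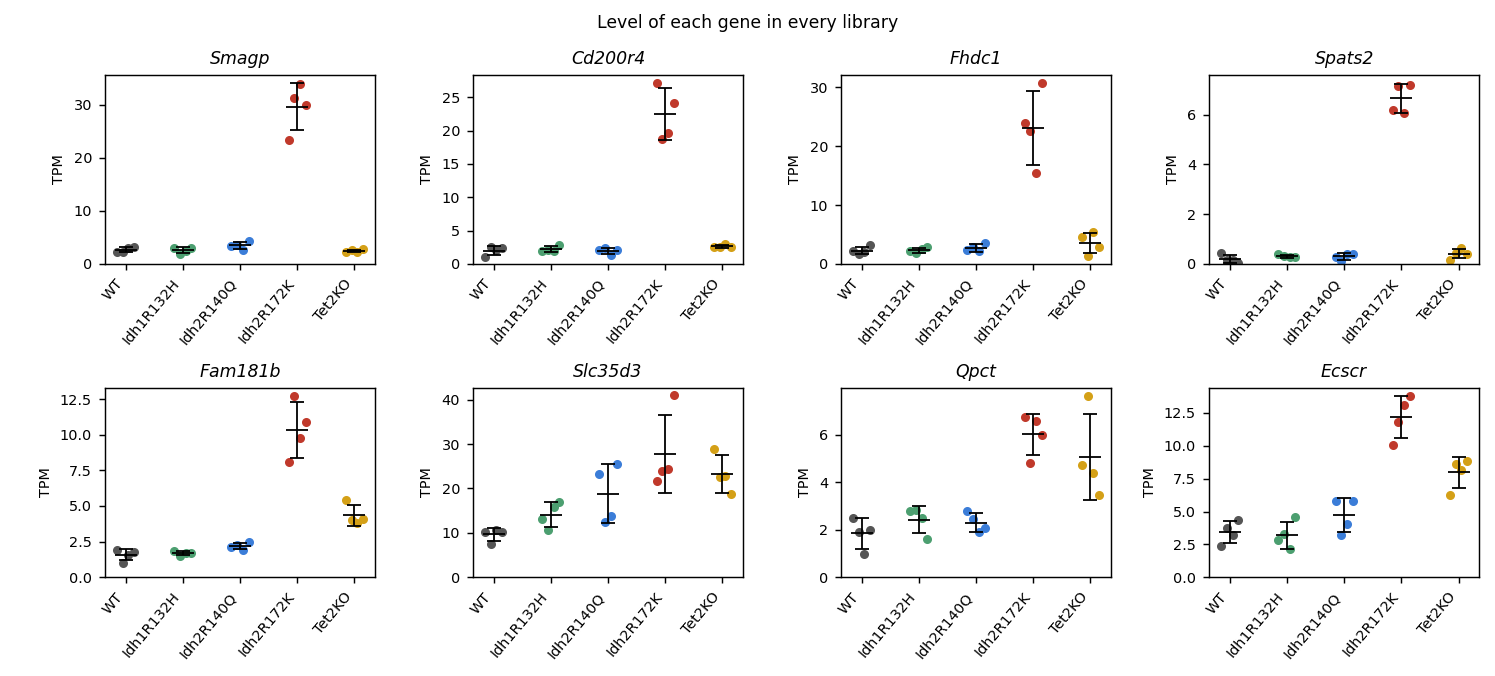
TPM (vertical axis, linear, from 0) of the 8 genes in the 20 libraries of 5 groups; points are libraries, in order of replicate number, and bars are the mean and SD of 4. In the upper row the Idh2R172K libraries of Smagp, Cd200r4, Fhdc1 and Spats2 lie above all other libraries; in the lower row Fam181b, Slc35d3, Qpct and Ecscr are also higher in Tet2KO than in WT.

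Smagp, the transmembrane glycoprotein, was at 2.28, 2.32, 3.01 and 3.2 TPM in the WT libraries and at 23.4, 31.3, 33.8 and 29.9 in Idh2R172K. It was at 3.08, 1.9, 2.53 and 2.98 in Idh1R132H, at 3.32, 3.55, 2.68 and 4.41 in Idh2R140Q, and at 2.31, 2.61, 2.23 and 2.75 in Tet2KO. The Idh2R172K libraries were high and apart from the other 16, which overlapped between neighbouring groups. The difference between Idh2R172K and WT was 3.04 ± 0.15 on the log2(TPM + 1) scale (± SE of the fit, as for all log2 differences below). The ratio of mean TPM was 10.9, and the rise ranked 14 among all tested genes. A log2 difference on this scale understates the change of a low gene, which is why the ratio is given beside it.

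Cd200r4, the activating relative of the CD200 receptor, was at 1.08, 2.52, 2.05 and 2.37 TPM in WT and at 27.1, 18.8, 19.7 and 24.1 in Idh2R172K. Idh1R132H had 1.98, 2.04, 1.99 and 2.9 TPM, Idh2R140Q 2.04, 2.36, 1.41 and 2.06, and Tet2KO 2.58, 2.53, 3.01 and 2.56. Idh2R172K again stood apart from all other libraries. The Tet2KO libraries all lay above the WT libraries, but the lowest of them, at 2.53, was next to the highest WT value of 2.52. The log2 difference from WT was 2.98 ± 0.17 in Idh2R172K, with a ratio of means of 11.2, and 0.32 ± 0.17 in Tet2KO, with a ratio of 1.33. The latter was 0.56 with limma-voom on the rebuilt reads.

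Fhdc1, the formin, was at 2.2, 1.64, 2.11 and 3.16 TPM in WT and at 23.9, 22.6, 15.4 and 30.7 in Idh2R172K. Idh1R132H had 2.16, 1.83, 2.5 and 2.86 TPM, Idh2R140Q 2.32, 2.89, 2.21 and 3.59, and Tet2KO 4.55, 1.38, 5.38 and 2.93. Idh2R172K was apart from every other library although its own values spread the most of the groups, with an SD of 6.28 TPM (n = 4). Tet2KO held both the lowest and the highest Fhdc1 value outside Idh2R172K. Its lowest library, replicate 2, is also the library with the largest share of RNA taken by the most abundant gene. The log2 difference from WT was 2.86 ± 0.26 in Idh2R172K and 0.40 ± 0.26 in Tet2KO. Without Tet2KO replicate 2 and the libraries numbered 4 in WT and the Idh groups, the latter was 0.80.

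Spats2, the RNA-binding protein, was at 0.425, 0.159, 0.171 and 0.0298 TPM in WT and at 6.2, 7.15, 6.07 and 7.19 in Idh2R172K. Idh1R132H had 0.399, 0.327, 0.266 and 0.265 TPM, Idh2R140Q 0.278, 0.137, 0.404 and 0.418, and Tet2KO 0.178, 0.443, 0.66 and 0.394. No library outside Idh2R172K reached 1 TPM, and those 16 libraries overlapped between neighbouring groups. In reads the contrast was 227 to 267 per library in Idh2R172K against 1 to 16 in WT. The ratio of means was 33.9, the largest of the 8 genes, whereas its log2 difference of 2.68 ± 0.13 was the smallest of the 4 genes described so far. The size on the log scale depends on the pseudocount for so low a gene: it was 4.68 with a pseudocount of 0.1 TPM and 5.35 with limma-voom on the rebuilt reads.

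Over these 4 genes the order of the groups below Idh2R172K was not shared. Tet2KO had the lowest mean of Smagp, at 2.47 TPM (SD 0.245, n = 4), but the highest mean below Idh2R172K of Cd200r4, Fhdc1 and Spats2. WT had the lowest mean of Fhdc1 and Spats2, and Idh2R140Q the lowest mean of Cd200r4. All of these neighbouring groups overlapped.

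The other 4 genes had a second step at Tet2KO. Fam181b was at 1.91, 1.02, 1.59 and 1.74 TPM in WT, at 8.06, 12.7, 9.74 and 10.9 in Idh2R172K and at 5.45, 4.02, 3.78 and 4.08 in Tet2KO. Idh1R132H had 1.87, 1.5, 1.7 and 1.68 TPM and Idh2R140Q 2.15, 2.29, 1.93 and 2.44. From Idh1R132H upwards the groups did not overlap, in the order Idh1R132H, Idh2R140Q, Tet2KO, Idh2R172K, while WT and Idh1R132H overlapped. The log2 difference from WT was 2.14 ± 0.14 in Idh2R172K and 1.06 ± 0.14 in Tet2KO, with ratios of means of 6.61 and 2.77. Fam181b was the gene of these 4 in which Idh2R172K and Tet2KO were farthest apart, by 1.08 ± 0.14.

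Slc35d3, the transporter of the dense granule pathway, was the most abundant of the 8 genes in WT, at 10.2, 7.55, 10.7 and 10.3 TPM. It was at 21.8, 23.9, 24.4 and 41 in Idh2R172K and at 29, 22.6, 22.8 and 18.7 in Tet2KO. Idh1R132H had 13.1, 10.7, 15.8 and 16.9 TPM and Idh2R140Q 23.3, 12.5, 13.8 and 25.6. WT was below every library of the mutant groups. The 4 mutant groups overlapped with their neighbours, in the order Idh1R132H, Idh2R140Q, Tet2KO, Idh2R172K, and the Idh2R172K and Tet2KO means of 27.8 (SD 8.89, n = 4) and 23.3 (SD 4.25, n = 4) differed by less than their spread. The log2 difference from WT was 1.40 ± 0.23 in Idh2R172K and 1.18 ± 0.23 in Tet2KO. Without Idh2R172K replicate 4, the library at 41 TPM, the former was 1.20.

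Qpct, the glutaminyl cyclase, was at 2.5, 1.92, 0.972 and 2 TPM in WT, at 6.74, 4.82, 6.56 and 5.97 in Idh2R172K and at 4.72, 7.64, 4.39 and 3.48 in Tet2KO. Idh1R132H had 2.78, 2.83, 2.51 and 1.6 TPM and Idh2R140Q 2.77, 2.44, 1.89 and 2.09. Idh2R172K and Tet2KO overlapped each other and were each apart from the remaining groups, which overlapped among themselves. The highest single Qpct library was Tet2KO replicate 2. The log2 difference from WT was 1.32 ± 0.20 in Idh2R172K and 1.08 ± 0.20 in Tet2KO, with ratios of means of 3.26 and 2.74.

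Ecscr, the endothelial surface protein, was at 2.38, 3.77, 3.21 and 4.35 TPM in WT, at 10.1, 11.8, 13.1 and 13.8 in Idh2R172K and at 6.28, 8.59, 8.16 and 8.87 in Tet2KO. Idh1R132H had 2.82, 3.29, 2.16 and 4.59 TPM and Idh2R140Q 5.8, 3.25, 4.03 and 5.78. Idh2R172K lay above Tet2KO and Tet2KO above the other 3 groups without overlap. The log2 difference from WT was 1.59 ± 0.20 in Idh2R172K and 1.03 ± 0.20 in Tet2KO, with ratios of means of 3.56 and 2.33. Between Idh2R172K and Tet2KO the difference was 0.56 ± 0.20 for Ecscr, 0.25 ± 0.20 for Qpct and 0.22 ± 0.23 for Slc35d3.

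All 8 genes lay above WT without overlap in Idh2R172K, where 13% of all tested genes did so, and 5 of 8 in Tet2KO, where 9.11% did so. Both counts follow from how the genes were picked, except that Cd200r4 was picked for Idh2R172K alone, and nothing is read from them. The comparisons of Idh2R172K and of Tet2KO with WT use the same 4 WT libraries.

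**Figure D2:**
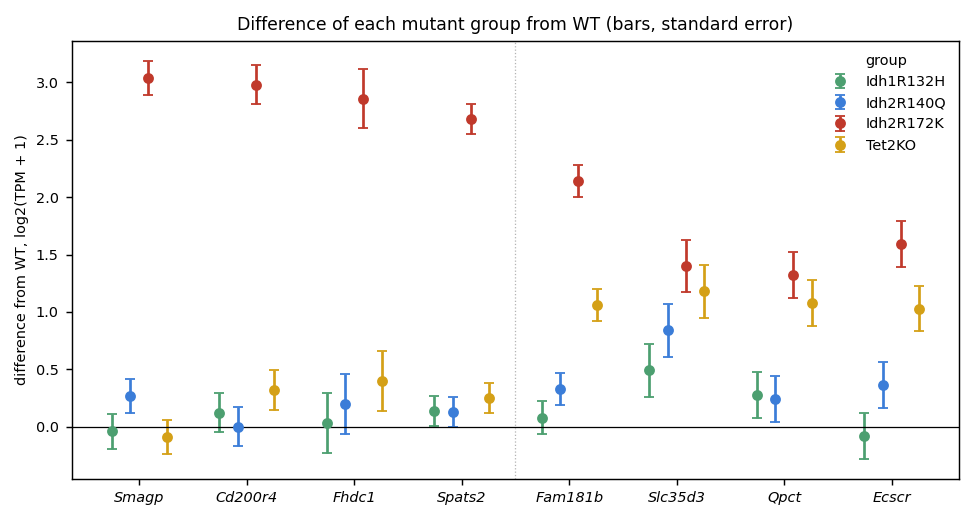
Difference of each mutant group from WT on the log2(TPM + 1) scale (vertical axis) for the 8 genes, with bars for the standard error of the fit; the dotted line parts the genes picked for Idh2R172K alone from those also picked for Tet2KO. Points of Idh1R132H and Idh2R140Q lie between -0.08 and 0.36 except those of Slc35d3, at 0.49 and 0.84.

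The genes were picked for rises in Idh2R172K and Tet2KO, and Idh1R132H and Idh2R140Q were tested with limma over all 14176 genes. The rule of choice was stated over all 20 libraries and does not say whether the levels in these 2 groups were looked at. The 2 comparisons with WT share the WT libraries on which the genes were picked, and the comparison of Idh2R140Q with Idh1R132H does not.

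In Idh1R132H against WT, none of the 8 genes was called at an adjusted p under 0.05 in limma or under any alternative setting. The share of all tested genes called was 0.00705%, which is 1 gene. At an unadjusted p under 0.05 there was 1 of 8, Slc35d3, against 1.62% of all genes. Slc35d3 was 0.49 ± 0.23 higher in Idh1R132H (limma, 95% interval 0.01 to 0.98, unadjusted p = 0.046, adjusted p = 1), and over 32 alternatives the adjusted p was 0.916 to 1. All 4 Idh1R132H libraries of Slc35d3 were above all WT libraries, as in 0.973% of tested genes, though the lowest of them and the highest of WT were both at 10.7 TPM when rounded. For the other 7 genes the groups overlapped. Qpct came next, at 0.28 ± 0.20 (95% interval -0.15 to 0.71). The 95% intervals were -0.35 to 0.28 for Smagp, -0.23 to 0.48 for Cd200r4, -0.51 to 0.58 for Fhdc1, -0.23 to 0.38 for Fam181b and -0.49 to 0.33 for Ecscr. Spats2 was at 0.14 ± 0.13 (-0.14 to 0.43), but at 0.64 with a pseudocount of 0.1 TPM and 0.99 with limma-voom, with an adjusted p of 1 in both. It had 10 to 16 reads in the Idh1R132H libraries and passed the filter on low values through Idh2R172K alone.

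In Idh2R140Q, whose mutation lies in the same enzyme as R172K, none of the 8 genes was called against WT, and the share called over all tested genes was 0%. Of all genes 407 had an unadjusted p under 0.05 in limma, and limma-voom on the rebuilt reads also called none. All 8 genes had a difference above 0, with a median of 0.25 against 0.08 over all tested genes, but Cd200r4 was at 0.00, with -0.17 to 0.12 over the alternatives, and Spats2 turned to -0.08 with quantile scaling. Slc35d3 was 0.84 ± 0.23 higher (limma, 95% interval 0.35 to 1.32, unadjusted p = 0.00193, adjusted p = 0.998). Its 4 Idh2R140Q libraries were all above WT, and the alternatives gave 0.67 to 1.00 with an adjusted p of 0.446 to 1. Fam181b was 0.33 ± 0.14 higher (limma, 95% interval 0.03 to 0.64, unadjusted p = 0.035, adjusted p = 0.998, alternatives 0.538 to 1), also with 4 of 4 libraries above WT. These were the 2 of 8 genes without overlap, against 1.58% of all genes, and the 2 of 8 at an unadjusted p under 0.05, against 2.87%.

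The 4 genes picked for Idh2R172K alone had these differences in Idh2R140Q. Smagp was at 0.27 ± 0.15 (95% interval -0.04 to 0.59), Fhdc1 at 0.20 ± 0.26 (-0.34 to 0.74) and Spats2 at 0.13 ± 0.13 (-0.15 to 0.42). That of Spats2 was 0.57 with a pseudocount of 0.1 TPM and 0.85 with limma-voom, past its interval, and was called in neither. Cd200r4 was at 0.00 ± 0.17 (-0.35 to 0.36). Ecscr was at 0.36 ± 0.20 (-0.05 to 0.77) and Qpct at 0.24 ± 0.20 (-0.19 to 0.66).

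Idh2R140Q against Idh1R132H, which uses no library of WT, Idh2R172K or Tet2KO, called none of the 8 genes, where 0.00705% of all tested genes, again 1 gene, was called. Of the 8 genes 5 were higher in Idh2R140Q, with a median difference of 0.21 against 0.04 over all genes. Ecscr had the smallest p, at 0.44 ± 0.20 (limma, 95% interval 0.03 to 0.85, unadjusted p = 0.037, adjusted p = 1, alternatives 0.374 to 1), and its libraries overlapped between the groups. That was 1 of 8 genes at an unadjusted p under 0.05, against 1.93% of all. Fam181b, at 0.25 ± 0.14, was the gene whose Idh2R140Q libraries were all above those of Idh1R132H, as in 0.839% of all genes. Slc35d3 differed by 0.34 ± 0.23 (-0.14 to 0.83), so its higher mean in Idh2R140Q was within the spread.

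Movement of the 8 genes within groups was described next. The deviation of each library from its group mean, on the log2(TPM + 1) scale, was correlated between genes over the 20 libraries. Pearson's r ran from -0.46 for Cd200r4 with Spats2 to 0.47 for Fam181b with Slc35d3, with a median of 0.03 over 28 pairs, 16 of them above 0. The median was 0.05 over the 6 pairs among Smagp, Cd200r4, Fhdc1 and Spats2, -0.09 over the 6 pairs among the other 4 genes, and 0.06 over the 16 pairs between the sets. These r are descriptions, since the points share pools and sequencing depth. At this number of libraries a weak shared movement was not detectable.

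**Figure D3:**
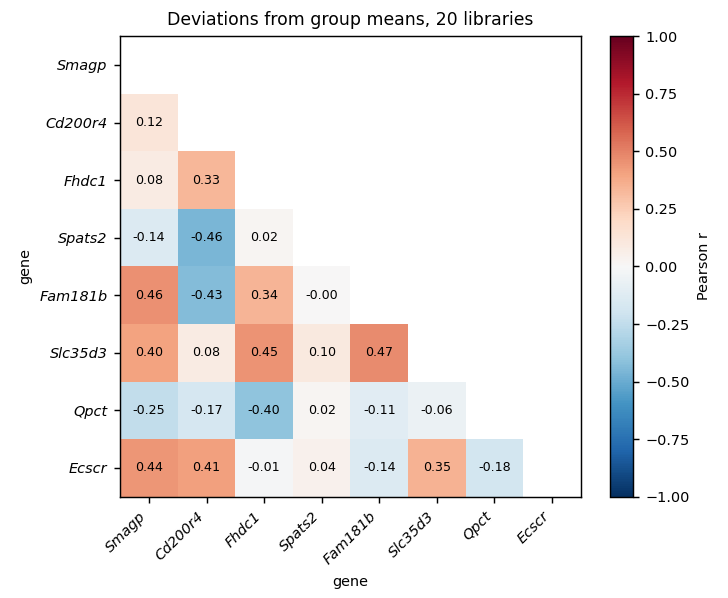
Pearson r between the 8 genes, over 20 libraries, of each library's deviation from its group mean in log2(TPM + 1); red is above 0 and blue below. The values run from -0.46 to 0.47, with a median of 0.03.

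The libraries numbered 4 in WT and the Idh groups stood apart in the share of TPM held by the most abundant gene, at 7.55 to 8.13%, against up to 20% in Tet2KO replicate 2. In these 4 libraries Smagp, Cd200r4, Fhdc1, Slc35d3 and Ecscr were above their group mean each time, by 0.22 to 0.43 for Fhdc1, 0.18 to 0.44 for Ecscr and 0.09 to 0.59 for Slc35d3. Fam181b was above it in 3 of the 4, Spats2 in 2 and Qpct in 1. What sets these libraries apart, and its part in the levels, was not tested. Without them and Tet2KO replicate 2 the differences of all 8 genes between Idh2R172K and WT kept their direction.

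The genes with the most similar levels over the 20 libraries were sought by Pearson's r with the mean z-score of each set of 4. The 4 Idh2R172K libraries lie far from the rest, so r mainly reports the group difference. For Smagp, Cd200r4, Fhdc1 and Spats2 the nearest were Itgb6, an integrin subunit of epithelia (r = 0.985, mean 0.576 TPM in WT and 4.44 in Idh2R172K), and Perp, a desmosomal membrane protein (r = 0.978, 6.03 and 94.8 TPM). Sparc, a secreted matrix protein, followed (r = 0.971, 0.643 and 6.13 TPM), then Mpzl2, an adhesion protein of the immunoglobulin family (r = 0.969, 0.221 and 6.07 TPM), and Tmem246 (r = 0.961, 7.38 and 33.9 TPM). In Tet2KO the mean was above that of WT for Itgb6 (0.823 TPM), Sparc (1.03), Mpzl2 (0.709) and Tmem246 (10.2). That of Perp (5.11 TPM) was below it.

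For Fam181b, Slc35d3, Qpct and Ecscr the nearest gene was Fcgrt, the neonatal Fc receptor (r = 0.961), at mean levels of 32.8 TPM in WT, 54.3 in Tet2KO and 77.8 in Idh2R172K. Rgs7bp, a partner of RGS proteins (r = 0.953), Prr13 (r = 0.945), Gng11, a G protein gamma subunit (r = 0.934), and H2-Oa, a subunit of the class II chaperone H2-O (r = 0.925), came next. Gng11 stood at 55.5, 109 and 174 TPM in the same 3 groups. Slc35d3 by itself had lower likeness to its best match, Mapk8 (r = 0.893), than any gene of the first set, and the kinase Mapk8 ranged from a mean of 5.01 TPM in WT to 7.06 in Idh2R172K. Hmga2, a chromatin protein of fetal stem cells, was the third nearest to Slc35d3 (r = 0.847), at 3.27 TPM in WT, 5.74 in Idh1R132H, 6.15 in Idh2R140Q, 11.6 in Idh2R172K and 11.9 in Tet2KO.

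Genes next to the 8 were compared to see whether whole regions were higher in Idh2R172K. Within 500 kb of the 8 genes lay 95 other tested genes, of which 12 were called higher and 11 lower in Idh2R172K against WT. That is 24.2% called, against 15.4% of all tested genes (8.03% higher and 7.33% lower). Il20ra, a cytokine receptor subunit whose gene ends 87863 bases from Slc35d3, stood at a mean of 2.12 TPM in WT (SD 0.785, n = 4) and 7.68 in Idh2R172K (SD 1.59, n = 4), a rise of 1.49 ± 0.23 (limma, adjusted p = 0.000124). This was close in size to the difference of Slc35d3 itself, and the call held in each alternative that tested the gene. Of the 9 tested genes within 500 kb of Slc35d3, 2 were called higher and 2 lower. Il22ra2 was among the lower, at -1.44 ± 0.17 (limma, adjusted p = 6.27e-06). The largest difference in any of the windows was a fall, that of Btla near Cd200r4, at -2.75 ± 0.28 (limma, adjusted p = 1.43e-06). The calls of Il22ra2 and Btla were not followed through the alternatives. Pex7, 2441 bases to the other side of Slc35d3, differed by 0.11 (adjusted p = 0.486).

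Within 500 kb of Smagp 1 gene was called higher, Cela1 (0.42 ± 0.12, limma adjusted p = 0.026), and 2 lower. The lower genes were Slc4a8 (-1.28 ± 0.14, limma adjusted p = 3.67e-06) and Galnt6 (-1.40 ± 0.30, limma adjusted p = 0.00302). These 3 calls were not followed through the alternatives. The nearest genes on either side of Smagp were not called. Dazap2, 578 bases away, was at 1110 TPM in WT and 1330 in Idh2R172K (0.25 ± 0.10, limma adjusted p = 0.0858), and Bin2, 4137 bases to the other side, at 367 and 211 TPM (-0.79 ± 0.27, limma adjusted p = 0.0545). Beside Spats2, Dnajc22 and Kcnh3 were at 0.112 TPM or less in WT and Idh2R172K and were not tested. Beside Fhdc1, Arfip1 was at 0.30 ± 0.11 (limma adjusted p = 0.0648), and Trim2 was too low to test, at 0.44 and 1.07 TPM. The genes flanking Qpct, Prkd3 (0.36) and Cdc42ep3 (0.15), were not called either. Beside Ecscr, Dnajc18 was at 0.19 and was not called. Tmem173, which encodes the innate immune adaptor STING, lies on its other side and was at -0.32 ± 0.09 (limma adjusted p = 0.0251) whose call ended without WT replicate 4 (0.0814) or Idh2R172K replicate 1 (0.0573), 2 (0.0663) or 3 (0.0635). Prcp, left of Fam181b, was at -0.33 ± 0.11 (limma adjusted p = 0.0387), and that call ended in 8 alternatives, each without a single library, with adjusted p from 0.0506 without Idh1R132H replicate 1 to 0.134 without Idh2R172K replicate 4. Tenm4, right of Fam181b, was too low to test.

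**Figure D4:**
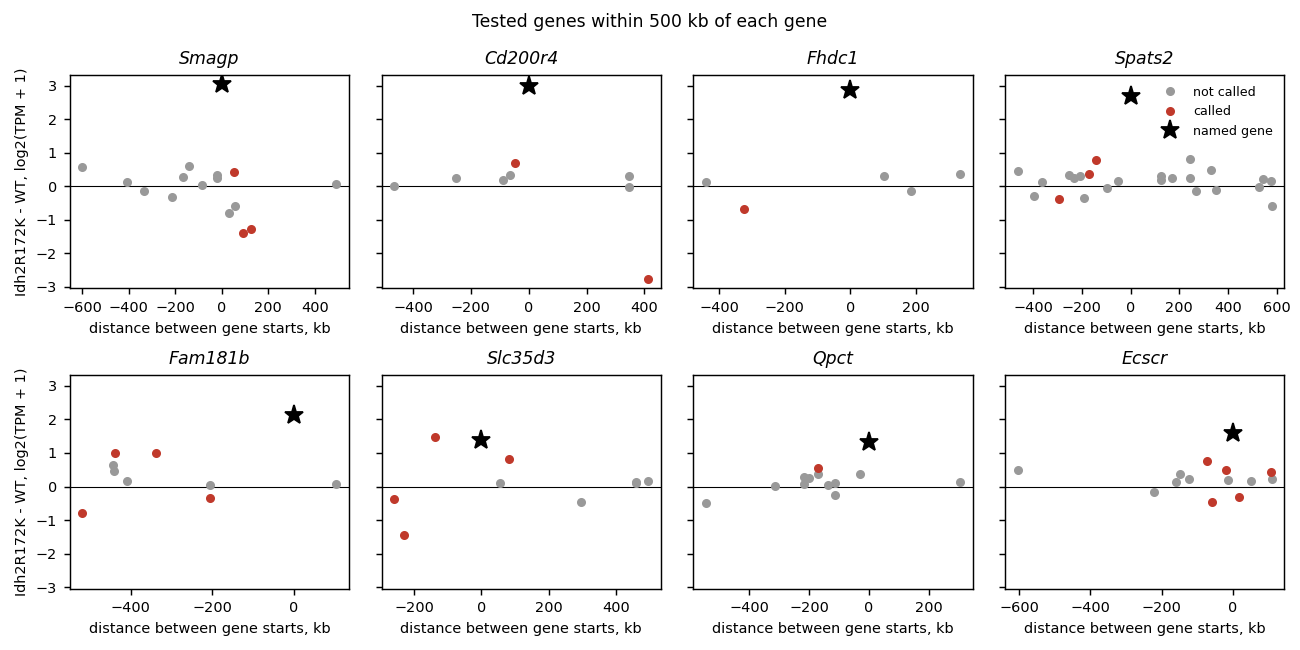
Log2(TPM + 1) difference between Idh2R172K and WT (vertical axis) of tested genes within 500 kb of each of the 8 genes, by distance between gene starts in kb (horizontal axis, negative towards lower coordinates). The star is the raised gene and red points are called genes (adjusted p under 0.05). Most neighbours lie near 0. In the panel of Slc35d3 the red points are Il20ra at 1.49, Map3k5 at 0.81, Ifngr1 at -0.37 and Il22ra2 at -1.44.

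Reads of overlapping or similar genes could add to these values, and the strand setting of the counting is not given in the sources used here. Fam181b shares 1137 exon bases with the opposite-strand gene Gm9934, and without strand their reads cannot be told apart. Gm9934 itself was at a mean of 0 to 0.0636 TPM in the 5 groups. Ecscr shares 62 exon bases with 1700066B19Rik on the other strand, which was at 1.61 TPM in WT and 2.69 in Idh2R172K. Of the 50-base stretches of Cd200r4, 4.94% also occur in related genes, mainly Cd200r2 and Cd200r1, and of Smagp 2.83% occur in Gm6762. For Fhdc1, Spats2, Slc35d3 and Qpct there were none.

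Of 9 listed relatives and signalling partners of Cd200r4, 7 could be tested, and in Idh2R172K 1 was called higher and 1 lower, with a median difference of 0.17 against 0.11 over all genes. Over all tested genes 15.4% were called (8.03% higher and 7.33% lower), the background for the lists below too, and with so few genes nothing is read from the counts. Cd200r1, the inhibitory receptor 16755 bases from Cd200r4, rose by 0.70 ± 0.20 (limma, adjusted p = 0.0201), from 20.2 to 33.3 TPM. This call ended without WT replicate 1 (0.063), WT replicate 2 (0.0601), WT replicate 3 (0.0627) or Idh2R172K replicate 4 (0.0802). The lower gene was Hcst, the adaptor DAP10, at 150 and 103 TPM (-0.52 ± 0.17, limma adjusted p = 0.0419), and its call ended in 16 alternatives, limma-voom among them (0.101). Cd200r2 was listed at 0 in every WT library and at a mean of 0.0784 TPM in Idh2R172K, and Cd200r3 was at 0.357 and 1.18 TPM; both were too low to test. The ligand Cd200 was at 6.55 and 10 TPM (limma adjusted p = 0.106), and Tyrobp, the activating adaptor DAP12, was abundant in both groups, at 441 and 384 TPM (limma adjusted p = 0.365).

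Of 14 listed formins other than Fhdc1, 9 were tested and 0 were called in Idh2R172K, where 15.4% of all tested genes were, with a median of 0.24. Diaph1, the most widely expressed type, was at 28.7 and 35.4 TPM (limma adjusted p = 0.0585). In Tet2KO, where 7.05% of all tested genes were called (5.02% higher and 2.02% lower), 2 formins were called higher, with a median of -0.22 over the list. Inf2, which both assembles and severs filaments, was at 4.01 TPM in WT and 6.67 in Tet2KO (0.61, limma adjusted p = 0.00661), a call that ended in a fit of these 2 groups alone (0.0853). Fmnl2 was at 2.24 and 3.81 TPM (0.56, limma adjusted p = 0.0225), and its call ended in the same fit (0.154), with quantile scaling (0.125) and without WT replicate 3 (0.0538).

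Close relatives of the other raised genes had the following levels. Fam181a was listed at 0 in every library. Spats2l was at 0.0469 TPM in WT and 0.0262 in Idh2R172K. Slc35d1 was at 6.1 and 5.13 TPM and Slc35d2 at 10.2 and 12, neither called. Of 20 tested SLC35 transporters 1 was called higher, Slc35e4 (0.53 ± 0.13, limma adjusted p = 0.00807), and 1 lower, Slc35c2, a Golgi regulator of fucosylation (-0.79 ± 0.10, limma adjusted p = 1.32e-05). Qpctl, the Golgi form of glutaminyl cyclase, was at 26.3 and 22.2 TPM (limma adjusted p = 0.347), so in WT it was more abundant than Qpct. Among the 5 tested genes of that pathway 1 was called, Oplah, which opens the ring of free pyroglutamate (0.59 ± 0.15, limma adjusted p = 0.0112, from 1.7 to 3.03 TPM).

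Of 22 dense granule genes, the pathway known to need Slc35d3, 2 were called higher and 0 lower in Idh2R172K, with a median of 0.13. Over all genes 8.03% were called higher, so the count is near that share. Rab38, a small GTPase, was at 331 and 426 TPM (0.36 ± 0.12, limma adjusted p = 0.0471), a call that ended in 20 alternatives. Slc18a2, which loads monoamines into granules, was at 83.8 TPM in WT and 165 in Idh2R172K (0.96 ± 0.26, limma adjusted p = 0.0176, but 0.0503 without Idh2R172K replicate 4). In Tet2KO 0 of the 22 were called, against 7.05% of all genes, and the median was -0.12.

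Surface genes shared by endothelium and stem cells, the class to which Ecscr belongs, had 4 called higher and 1 lower of 12 tested in Idh2R172K, against 8.03% and 7.33% of all genes, with a median of 0.09. Selp, which encodes P-selectin, rose by 2.29 ± 0.37 (limma, adjusted p = 0.000261), from 40.5 to 195 TPM. S1pr1, a receptor for sphingosine 1-phosphate, rose by 1.31 ± 0.18 (limma, adjusted p = 4.56e-05), and Esam, an adhesion protein, by 1.19 ± 0.22 (limma, adjusted p = 0.000814). Eng, or endoglin, was at 104 and 146 TPM (0.48 ± 0.15, limma adjusted p = 0.0372), a call that ended in 8 alternatives, with adjusted p from 0.0531 without WT replicate 4 to 0.0872 without WT replicate 2. Vwf fell by 1.35 (limma, adjusted p = 0.00269), from 8.59 to 2.96 TPM.

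Adhesion genes of epithelia, the setting in which Smagp is known, were called in both directions. Of 14 tested of 23 listed, 6 were called higher and 4 lower in Idh2R172K, against 8.03% and 7.33% of all genes, with a median of 0.13. Of these calls that of Krt18 ended in 8 alternatives. The Jup call ended without WT replicate 3 (0.0718) and without Idh2R172K replicate 1 (0.0526). Perp, already named for its likeness to Smagp, rose by 3.77 ± 0.17 (limma, adjusted p = 5.45e-11), Tjp1, a tight junction scaffold, by 1.65 ± 0.30 (limma, adjusted p = 0.000654), and Cldn7, a claudin, by 1.54 ± 0.16 (limma, adjusted p = 1.97e-06). Cdh1, which encodes E-cadherin, fell by 1.19 (limma, adjusted p = 3.13e-05), from 1.49 to 0.086 TPM. In Idh1R132H and Idh2R140Q no gene of any of these lists was called.

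Markers of the sorted fraction and of other cells were read beside these values, since in bulk RNA fewer cells of a type and less RNA per cell cannot be told apart. Kit was at 391 TPM in WT and 590 in Idh2R172K (limma adjusted p = 0.226) and Ly6a, which encodes Sca1, at 168 and 130; the 11 stem cell markers summed to 2200 to 2530 TPM per library in WT and 2830 to 2960 in Idh2R172K. Of 5 tested endothelial markers 2 were called higher and 1 lower in Idh2R172K, against 8.03% and 7.33% of all genes, and all 13 summed to 88.5 to 115 TPM in WT, 160 to 218 in Idh2R172K and 65.7 to 151 in Tet2KO. Tie1 (42.2 and 94.7 TPM) and Tek (19 and 50.8 TPM), which stem cells also express, made up most of it. In Idh2R172K the other listed markers were at 27 TPM for Robo4, 4.12 for Emcn, 2.49 for Plvap, 1.18 for Flt4, 0.576 for Kdr, 0.365 for Cldn5, 0.317 for Stab2, 0.0833 for Flt1, 0.0501 for Cdh5 and 0.00923 for Clec14a. Mmrn2 was listed at 0 in all Idh2R172K libraries. Ecscr was at 12.2 TPM there, and the part of endothelial RNA in its level was not tested.

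Megakaryocyte markers, of interest for Slc35d3 and the dense granules, summed to 597 to 740 TPM in WT, 999 to 1210 in Idh2R172K and 470 to 815 in Tet2KO, with 3 called higher and 1 lower of 12 tested in Idh2R172K, where 8.03% and 7.33% of all genes were. Itga2b was at 104 and 224 TPM and Pf4 at 160 and 46.8. The Itgb3 call, 1 of the 3, ended in 6 alternatives. In Tet2KO 0 were called higher and 1 lower, Gp5, whose call ended in the fit of 2 groups (0.0817) and without WT replicate 3 (0.0656). Slc35d3 was at 23.3 TPM there. Mast cell and basophil markers, of interest for Cd200r4, had 1 called higher (Cpa3, 106 and 281 TPM) and 4 lower of 7 tested in Idh2R172K, among them Ms4a2, the IgE receptor beta chain, at 6.77 and 0.639 TPM. Their part in the levels of the 8 genes was not tested. Of the 10 stromal markers 7 had a mean below 0.1 TPM over the libraries, and the sum of that list was nearly all Pdgfrb, at 95.6 TPM in WT and 294 in Idh2R172K.

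Among the remaining lists the counts of genes called higher and lower in Idh2R172K were 0 and 0 of 9 tested for neutrophils, 2 and 2 of 7 for the B lineage, 1 and 1 of 6 for plasma cells, 0 and 2 of 4 for T and NK cells, 0 and 2 of 9 for macrophages, 0 and 2 of 9 for red cells, and 1 and 2 of 5 for the genes of the depletion cocktail, against 8.03% and 7.33% of all genes. Calls among them that ended in alternatives were those of Mzb1 (in 20), Itgam (19), Vpreb1 (5), Cd163 (4) and Klrb1c (3). In Tet2KO 5 red cell markers were called higher and 2 lower, against 5.02% and 2.02% of all genes.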

How the data were processed

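RNA of sorted LSK cells was measured in 20 libraries, 4 pools in each of 5 groups. Per the submitters' processing notes the authors used Trim Galore, STAR and featureCounts on mm10; versions, annotation release and strand setting are not given in the sources used here. The authors deposited TPM, which add up to 1000000 in a library. Column names gave the mutation and number of each sample; those of Idh2R140Q carry an Idh1 prefix with 140Q and were assigned by the mutation. Of the 46078 gene IDs, 45229 are in GENCODE M21, which gave symbols, positions and exon lengths; the other 849 held 0.103 to 0.128% of TPM.

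Groups were compared on log2(TPM + 1) with limma 3.58.1 (R 4.3.3), in 1 fit of 5 groups with an intensity trend. The two-sided p-values have a Benjamini-Hochberg adjustment over 14176 genes, those whose mean reached 1 TPM. Called means an adjusted p under 0.05. The unit differs from counts, so reads were rebuilt only for depth, for the reads quoted and for limma-voom: TPM times exon length, scaled per library, gave whole numbers within 0.1 for 90 to 91% of low values (up to 30 reads). Of 14116 annotated tested genes, 56.8% gave whole reads at the GENCODE length, 21.2% at another length found by search and 22% at none. All 8 genes gave whole reads, Cd200r4 and Fhdc1 at the GENCODE length and the others at another, so the lengths the authors divided by differ from GENCODE's for those 6. At 35.2 to 45 M reads, levels under about 1 TPM rest on few reads. Tables and figures used Python 3.11.15, pandas 2.3.3, numpy 2.4.6, scipy 1.17.1 and matplotlib 3.10.9. The scripts were tested on simulated data.

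The 8 genes, the related and marker lists and the tests were chosen with earlier results of these data known. The genes named are the 8, their close paralogues, the nearest protein-coding gene on each side, up to 4 called genes of each list with the smallest p, and the 5 genes nearest in pattern to each set of 4, with the nearest 3 to single genes; sex-linked and unnamed gene models were left out of the patterns. Other list members are quoted for their role, and called genes within 500 kb beyond the nearest for their differences. All of these were chosen after their values were seen.

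Replicate numbers come from the labels, which tie them to no shared animal, litter or day. Same-numbered libraries deviated together, with every correlation of deviations above 0.1, for WT with Idh1R132H (0.18 to 0.49) and among the Idh groups. The correlations were 0.097 to 0.45 for WT with Idh2R140Q and -0.02 to 0.40 for WT with Idh2R172K. In both pairs the libraries numbered 4 had the highest value. Pairs with Tet2KO ran from -0.20 to 0.11. Alternatives were another pseudocount, filters, scalings, weights, no trend, fits of 2 groups, the replicate block, limma-voom and leaving out libraries. Proteins were not used here.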

Additional observations from a re-analysis of the deposited data

Results flagged for a closer look

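Among the 8 genes, 40 sets of 4 libraries (each gene in each group) were searched for a library far from the other 3. A gap between the extreme value and its neighbour, as a share of the whole range, above Dixon's 95% critical value marked such a library, and chance marks about 1 set in 20. Cd200r4 was at 2.9 TPM in Idh1R132H replicate 4, with the other 3 at 1.98 to 2.04. Cd200r4 was also at 3.01 TPM in Tet2KO replicate 3, with the others at 2.53 to 2.58. Slc35d3 was at 7.55 TPM in WT replicate 2, below the others at 10.2 to 10.7, and its difference between Idh2R140Q and WT was 0.73 without that library and 0.84 with it. Slc35d3 was at 41 TPM in Idh2R172K replicate 4, above the others at 21.8 to 24.4. That library is one of those numbered 4 in which the most abundant gene held a low share of TPM; its part in this value was not tested.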

How the results depend on the processing

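No alternative called any of the 8 genes in Idh1R132H against WT, Idh2R140Q against WT or Idh2R140Q against Idh1R132H, the replicate block included, which called 0 of 8 each time. Of their differences there, 278 outside the leave-one-out fits kept direction and side of the threshold and 1 did not. That was Spats2 in Idh2R140Q against WT, at -0.08 with quantile scaling; Spats2 in Tet2KO against WT was at -0.04 with the same scaling. With the libraries numbered 4 and Tet2KO replicate 2 left out together, Spats2 was at -0.07 in Idh2R140Q against Idh1R132H. Leaving out each library turned small differences, and their ranges cross 0. In Idh1R132H against WT these were -0.10 to 0.07 for Smagp, -0.04 to 0.21 for Cd200r4, -0.06 to 0.16 for Fhdc1, -0.03 to 0.14 for Fam181b and -0.23 to 0.05 for Ecscr. In Idh2R140Q against Idh1R132H they were -0.05 to 0.06 for Spats2 and -0.17 to 0.01 for Qpct. Cd200r4 in Idh2R140Q against WT ran from -0.17 to 0.12 over all alternatives around a value of 0.00. The differences of the 8 genes from WT in Idh2R172K kept their direction in all alternatives, from 1.16 for the lowest value of Qpct to 5.35 for the highest of Spats2.

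The number of genes called over all tested genes moved more, and the cause was not tested. In Idh2R172K against WT it was 2177, with 1371 at a mean of at least 5 TPM, 4586 with library weights, 4641 without the libraries numbered 4 and Tet2KO replicate 2, 3141 with the replicate block and 1618 to 3360 with each library left out (3360 without Tet2KO replicate 2). In Tet2KO against WT it was 999, with 517 at a mean of at least 5 TPM, 2648 with median-of-ratios scaling, 2492 with quantile scaling, 1833 after rescaling without mitochondrial and the 20 most abundant genes, 45 in the fit of 2 groups, 5231 with library weights, 2485 with the replicate block, 2581 with limma-voom and 4515 without the libraries numbered 4 and Tet2KO replicate 2. Leaving out each library gave 266 to 1391 (504 without WT replicate 1, 266 without WT replicate 3, 351 without Tet2KO replicate 4). In Idh1R132H against WT it was 1, with 2 without a filter, 0 at a mean of at least 5 TPM, 0 in the fit of 2 groups, 2 with the replicate block and 1 to 2 with each library left out. In Idh2R140Q against WT it was 0, with 2 without a filter and 0 to 0 with each library left out. In Idh2R140Q against Idh1R132H it was 1, with 0 at a pseudocount of 0.1, 2 without a filter, 0 at a mean of at least 5 TPM, 5 with library weights and 0 to 3 with each library left out.

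The share of calls that were higher was 52.3% in Idh2R172K against WT. It was 64.5% with library weights and 67.7% without the libraries numbered 4 and Tet2KO replicate 2, but 44.9% with median-of-ratios scaling, 44.6% with quantile scaling, 44.1% without Idh2R172K replicate 4 and 45.2% without WT replicate 2, so the majority turned. In Tet2KO against WT it was 71.3%, but 42.9% with median-of-ratios scaling, 42.2% with quantile scaling, 58.7% after rescaling, 86.7% in the fit of 2 groups, 83.6% with library weights and 80.8% without a filter. Spats2, with 1 to 16 reads per WT library, is the gene whose fold the depth limits most.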
